A study of Mus musculus with 10 samples.

Results

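The livers compared here came from mice that carried an active, nuclear form of either human SREBP-1a or human SREBP-2, sterol regulatory element-binding proteins that switch on the genes of lipid synthesis. Members were chosen by their sample titles: the 2 arrays of the TgSREBP-1a pool and the 2 arrays of the TgSREBP-2 pool, which are 4 of the 10 arrays in the study, and all 8251 genes that a probe set names alone. TgSREBP-1a mice, TgSREBP-2 mice and their wild type littermates were males of 12 to 16 weeks, and all of them ate a diet high in protein and low in carbohydrate for 2 weeks, which raises the transgene product. A second set was used below beside the results and for the variance of the fit. It held male mice of 10 to 12 weeks whose livers were Scap-/- through MX1-Cre, with corresponding wild type mice, fed Teklad chow. Polyinosinic-polycytidylic acid, the inducer of the recombinase, was injected 4 times into both groups of that set, and livers were taken 14 days after the last injection.

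Each group was 1 pool of RNA from 5 livers, 20 µg in total, hybridised to 2 Affymetrix MG_U74Av2 arrays. The p-values therefore compare 2 pools by the spread between hybridisations and carry no error between mice. In whole liver, fewer cells of a type and less RNA per cell cannot be told apart. Both transgenic lines are known to be driven by the promoter of the Pck1 gene, and MX1-Cre is known to act in cells other than hepatocytes as well. The amount of nuclear SREBP in either line was not analysed here, nor were the human transgenes, Srebf2 and Scap, so whether the lines carried like amounts is not known here.

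SREBPs are made as membrane proteins of the endoplasmic reticulum. The escort protein SCAP carries them to the Golgi when sterols are low, proteases release the part that enters the nucleus, and this part binds sterol regulatory elements in promoters, usually beside sites of NF-Y or Sp1. SREBP-1a has a long activation domain and is known to act on genes of both cholesterol and fatty acid synthesis, while SREBP-2 is known mainly for cholesterol synthesis and uptake. The transgenes lack the membrane anchor, so their products escape control by sterols. The direct comparison asks which liver transcripts differed between the isoforms.

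Values are log2 signals as deposited, so a difference of 1 is a 2-fold change. After a difference, ± gives its standard error from the limma fit with n = 2 arrays per pool. That fit takes 1 variance per gene over all 10 arrays, the chow set included. The standard deviation between duplicates was 0.15 in TgSREBP-1a and 0.13 in TgSREBP-2. In the chow set it was 0.08 in wild type and 0.10 in Scap-/-, so the errors draw on quieter arrays too. Signals are given for replicate 1 and then replicate 2, with SREBP-1a and with SREBP-2 standing for the TgSREBP-1a and TgSREBP-2 pools. With 32 added means that 32 was added to the linear signals before taking logs, which damps low values. A gene was called when its adjusted p was under 0.05 and its difference at least 1.5-fold. Duplicate arrays correlated at 0.9921 in TgSREBP-1a and 0.9942 in TgSREBP-2, with 151 and 55 genes at least 1.5-fold apart between them. The 18S ribosomal RNA probe set nearest the 3′ end read 7.63 and 9.49 in TgSREBP-1a and 7.62 and 9.65 in TgSREBP-2, so replicate 2 was higher in both pools. The log2 gap between 3′ and 5′ probe sets of actin was 0.89 and 0.89 in TgSREBP-1a against 1.16 and 1.18 in TgSREBP-2, and for Gapdh it was 0.70 and 0.69 against 0.82 and 0.70. The summed linear signal of 12 exocrine pancreas markers was 2224 to 2390 in TgSREBP-1a, 24800 to 25050 in TgSREBP-2 and 18240 to 18830 in wild type. That of 8 hepatocyte markers was 49000 to 53050 and 50240 to 51770 in the transgenic pools. The part of these values in the differences below was not tested.

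Promoters of the lipid synthesis genes are shown first, since these pathways are the ones SREBPs are known to control. Promoters of 6576 of the 8251 genes were matched in RefSeq (GRCm38.p6), and the 250 bases before each start were searched on both strands for TCACNCCAC (a sterol regulatory element), CCAAT (the NF-Y site) and GGGCGG (an Sp1 site). TCACNCCAC was present in 1.44% of all promoters and in 1 of 14 promoters of cholesterol synthesis genes, that of Hmgcs1. CCAAT was present in 40.0% of all promoters, in 14 of 14 of cholesterol synthesis genes and in 5 of 10 of fatty acid synthesis genes. GGGCGG was present in 58.9% of all promoters, in 13 of 14 and in 6 of 10. No entry was matched for Fdft1, Fdps, Sqle, Fads1, Scd1, Scd2 and Lpl. The 150 bases before the start are printed for Hmgcs1 and Pcyt1a, the lipid genes with a TCACNCCAC match. They are also printed for 3 cholesterol genes and 4 fatty acid genes chosen after their values were seen. Capitals mark TCACNCCAC, and CCAAT or its reverse complement ATTGG. In the Fasn window a CCAAT and an ATTGG overlap.
Hmgcs1, chr13:119690201-119690350, plus strand: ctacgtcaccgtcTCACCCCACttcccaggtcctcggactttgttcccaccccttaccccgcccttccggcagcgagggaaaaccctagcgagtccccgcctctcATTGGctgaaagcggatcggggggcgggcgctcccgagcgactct
Pcyt1a, chr16:32430771-32430920, plus strand: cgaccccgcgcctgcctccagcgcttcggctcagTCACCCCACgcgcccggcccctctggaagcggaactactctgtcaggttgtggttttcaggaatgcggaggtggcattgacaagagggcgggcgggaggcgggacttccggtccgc
Msmo1, chr8:64733579-64733728, minus strand: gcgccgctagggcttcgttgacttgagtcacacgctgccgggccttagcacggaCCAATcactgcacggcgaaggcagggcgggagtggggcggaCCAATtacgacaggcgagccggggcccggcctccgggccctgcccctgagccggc
Idi1, chr13:8885456-8885605, plus strand: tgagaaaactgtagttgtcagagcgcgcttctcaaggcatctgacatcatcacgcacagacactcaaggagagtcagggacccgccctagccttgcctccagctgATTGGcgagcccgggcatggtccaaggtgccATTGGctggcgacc
Mvk, chr5:114444119-114444268, plus strand: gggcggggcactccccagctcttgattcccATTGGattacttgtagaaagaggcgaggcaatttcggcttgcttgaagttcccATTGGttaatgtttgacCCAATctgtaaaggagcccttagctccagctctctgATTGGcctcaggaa
Acss1, chr2:150668241-150668390, minus strand: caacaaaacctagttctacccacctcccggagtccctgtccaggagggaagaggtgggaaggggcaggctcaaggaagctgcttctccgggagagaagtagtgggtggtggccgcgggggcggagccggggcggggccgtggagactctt
Thrsp, chr7:97417551-97417700, minus strand: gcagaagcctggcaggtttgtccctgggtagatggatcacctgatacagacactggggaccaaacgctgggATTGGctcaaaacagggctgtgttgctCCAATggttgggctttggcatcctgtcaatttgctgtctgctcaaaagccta
Elovl6, chr3:129532236-129532385, plus strand: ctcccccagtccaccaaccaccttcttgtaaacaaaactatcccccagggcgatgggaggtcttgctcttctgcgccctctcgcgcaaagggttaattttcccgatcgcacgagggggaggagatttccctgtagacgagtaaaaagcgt
Fasn, chr11:120824548-120824697, minus strand: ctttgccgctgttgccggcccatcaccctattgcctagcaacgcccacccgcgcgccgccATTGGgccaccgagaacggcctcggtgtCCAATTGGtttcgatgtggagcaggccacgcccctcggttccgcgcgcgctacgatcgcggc
The windows of Msmo1, Idi1 and Mvk, all lower in TgSREBP-1a than in TgSREBP-2, held 2, 2 and 4 CCAAT matches. That of Hsd17b7, also lower and chosen in the same way but not printed, held 2. Of the genes higher in TgSREBP-1a, Thrsp had 2, Fasn 3, and the windows of Acss1 and Elovl6 held 0. None of the 7 printed windows chosen by value, nor that of Hsd17b7, held TCACNCCAC. This says only that these letters are not in this stretch. A match is a description of the sequence and not a binding site. Among all called genes, CCAAT was in 45.0% of the 131 matched promoters of genes higher in TgSREBP-1a and in 48.5% of the 206 of genes lower there. GGGCGG was in 59.5% and 44.7%, and TCACNCCAC in 1.53% and 2.43%.

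In the direct comparison 428 genes were called, 5.19% of those tested. Of these, 185 (2.24%) were higher in TgSREBP-1a and 243 (2.95%) were lower, that is, higher in TgSREBP-2. At 2-fold the counts were 77 and 108, and at 4-fold 20 and 27. Counts of list members called below stand against the shares of 2.24% and 2.95%. A single call in a list is not read as a result about that list. The median difference over all genes was 0.0022. Arrays of the 2 pools did not overlap for any of the 428 called genes. Over all genes this held for 22.3% in the higher and 22.4% in the lower direction. Where it is stated below for called genes, it therefore adds nothing to the call. Genes higher in TgSREBP-1a had a median difference from wild type of 1.07 in TgSREBP-1a and 0.06 in TgSREBP-2. Genes lower in TgSREBP-1a had medians of -0.77 and 0.19. These 2 comparisons share the wild type arrays and are given as values only. Leaving out replicate 2 of TgSREBP-1a turned the split (254 and 206), as did leaving out replicate 1 of TgSREBP-2 (217 and 194).

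**Figure D1:**
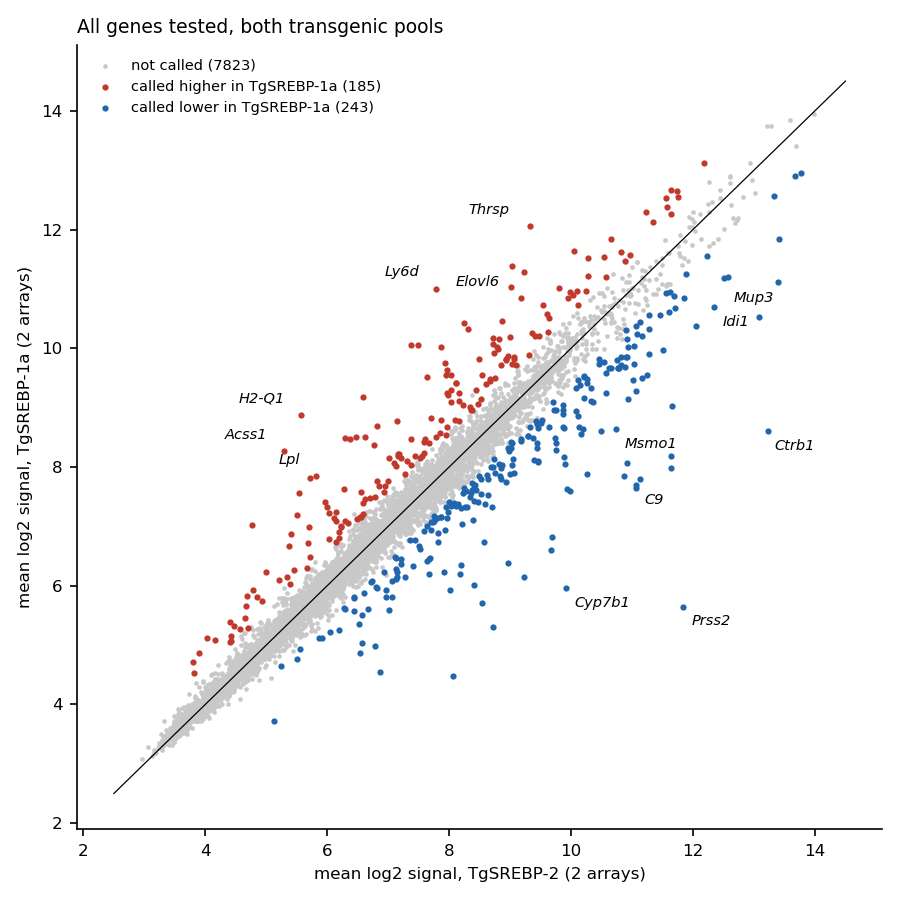
Mean log2 signal of each of 8251 genes in TgSREBP-1a (vertical) against TgSREBP-2 (horizontal), each over 2 arrays, with the line of equal signal. Red points are the 185 genes called higher in TgSREBP-1a and blue points the 243 called lower. Thrsp, Acss1 and Elovl6 lie above the line and Msmo1, Idi1 and the pancreas gene Prss2 below it.

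Of 21 listed enzymes of cholesterol synthesis 17 were measured, of which 9 were called lower in TgSREBP-1a than in TgSREBP-2 and 0 higher (median -0.68, all genes 2.95% lower), although 15 of the 17 were called higher than wild type in TgSREBP-1a (4.78% of all genes) and 16 in TgSREBP-2 (2.18%). Arrays of the pools did not overlap for 13 of the 17 in the lower direction, against 22.4% of all genes, and for 1, Fdps, in the higher direction, against 22.3%. Msmo1, which removes methyl groups from the sterol ring, had the largest gap. Its signal was 8.84 and 8.42 with SREBP-1a, 10.96 and 10.51 with SREBP-2 and 7.06 and 6.62 in wild type. The TgSREBP-1a arrays lay between the other pools, 4.3-fold below TgSREBP-2 (-2.10 ± 0.19, adjusted p = 4.05e-05). Idi1, which makes dimethylallyl diphosphate from its isomer, read 10.74 and 10.64 with SREBP-1a, 12.40 and 12.29 with SREBP-2 and 7.96 and 8.10 in wild type, again with TgSREBP-1a in between (-1.66 ± 0.09, adjusted p = 5.79e-07). Mvk, mevalonate kinase, read 8.32 and 8.47 with SREBP-1a, 9.79 and 9.71 with SREBP-2 and 8.15 and 8.36 in wild type. Here the TgSREBP-1a arrays reached over those of wild type, from which the difference was 0.14 ± 0.10 (adjusted p = 0.386), and TgSREBP-2 stood 2.55-fold above (-1.35 ± 0.10). Mvk is named from its probe set of the r type, which the maker designed under relaxed rules.

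Hsd17b7, a ketosteroid reductase of the late pathway, read 6.58 and 6.25 with SREBP-1a and 7.77 and 7.49 with SREBP-2 (-1.22 ± 0.13), with wild type at 5.73 and 5.90. Cyp51, the lanosterol demethylase, read 8.89 and 8.46 with SREBP-1a and 9.73 and 9.55 with SREBP-2 (-0.97 ± 0.17). Fdft1, squalene synthase and the first enzyme committed to sterols, read 9.92 and 9.80 with SREBP-1a and 10.91 and 10.72 with SREBP-2 (-0.96 ± 0.14). For all 3 the pools did not overlap. The sterol isomerase Ebp differed by -0.79 ± 0.13 and squalene epoxidase, Sqle, by -0.78 ± 0.12. Nsdhl, a sterol dehydrogenase, stood at the fold threshold (-0.59 ± 0.11) and fell just short of it with 32 added (-0.58) or probe sets averaged (-0.58), and without replicate 2 of TgSREBP-1a (-0.53), without replicate 1 of TgSREBP-2 (-0.52) and under quantile normalization (-0.44).

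The other 8 enzymes did not pass. Hmgcs1, HMG-CoA synthase, read 10.46 and 9.86 with SREBP-1a and 10.93 and 10.75 with SREBP-2 (-0.68 ± 0.21, adjusted p = 0.0756). With the replicate number as a block, which called 5.36% of all genes, it was called lower (adjusted p = 0.000441), as it was without replicate 1 of TgSREBP-1a (-0.98). Sc5d (-0.57 ± 0.33) was spread over 9.36 and 8.23 in TgSREBP-1a and was called without replicate 1 there (-1.13). Tm7sf2 (-0.53 ± 0.09) and Mvd (-0.41 ± 0.11) passed on p alone, and Tm7sf2 was called without replicate 2 of TgSREBP-1a (-0.62). Lss differed by -0.32 ± 0.09. Dhcr7, the last step to cholesterol, read 9.32 and 9.01 with SREBP-1a and 9.64 and 9.02 with SREBP-2, with a 95% interval of the difference from -0.62 to 0.28. Ggps1, which leads to geranylgeranyl groups rather than sterols, had an interval from -0.14 to 0.21 and was called in neither pool against wild type. Fdps, farnesyl diphosphate synthase, was the exception in sign: it read 13.11 and 13.14 with SREBP-1a and 12.97 and 12.90 with SREBP-2 (0.19 ± 0.08, adjusted p = 0.171), near the top of the range of all signals at 14.03. Under quantile normalization Fdps was called higher in TgSREBP-1a (0.62).

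**Figure D2:**
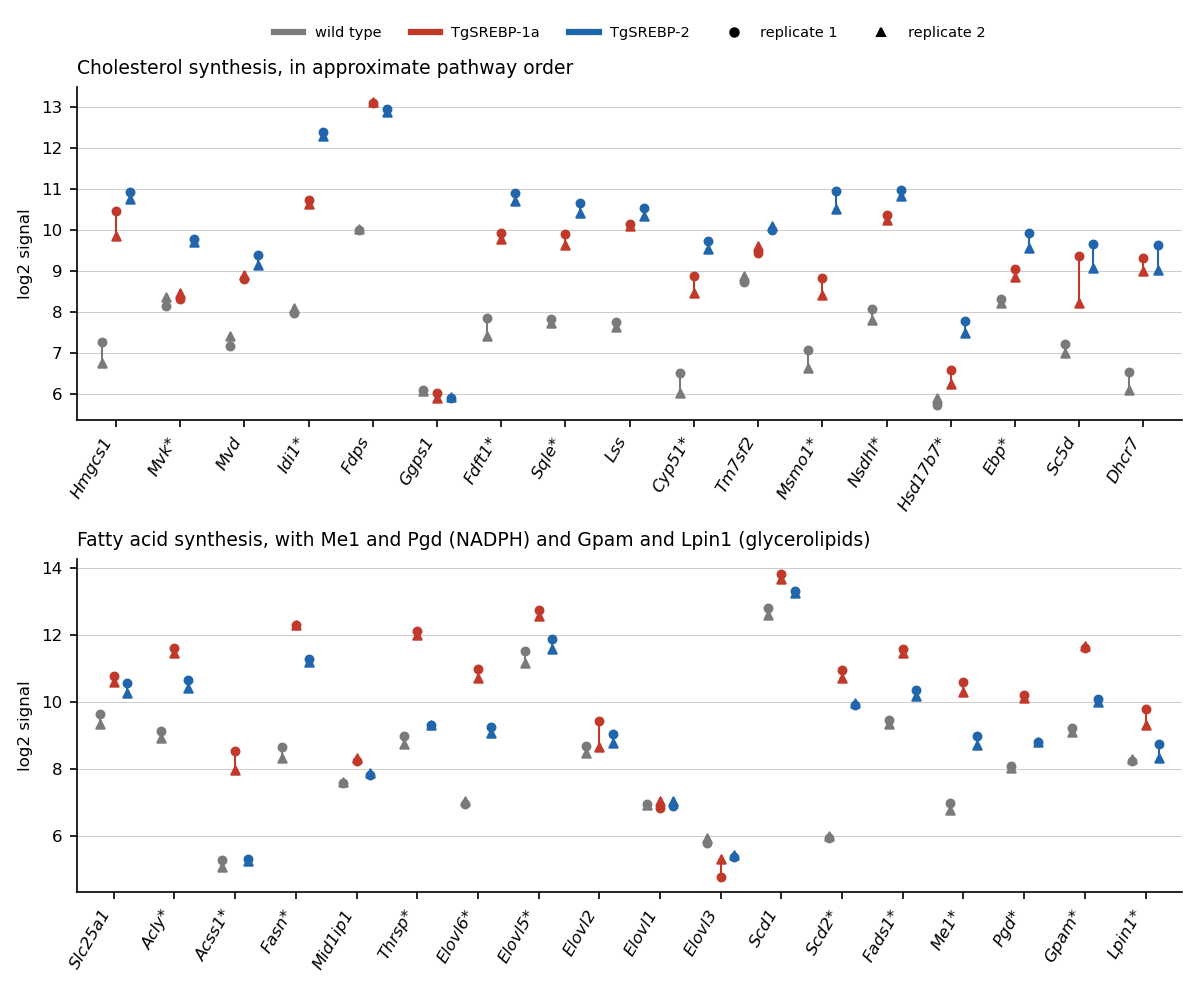
Log2 signal on each array of the high-protein set for 17 cholesterol synthesis genes (top) and for fatty acid synthesis genes with 4 genes of NADPH and glycerolipid synthesis (bottom). Circles are replicate 1 and triangles replicate 2 of wild type (grey), TgSREBP-1a (red) and TgSREBP-2 (blue), and an asterisk marks genes called between the transgenic pools. In the top panel blue lies above red for 15 of 17 genes on average, and in the bottom panel red lies above blue for the genes with an asterisk.

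Of 18 listed genes of fatty acid synthesis 14 were measured, of which 8 were called higher in TgSREBP-1a and 0 lower (median 0.91, all genes 2.24% higher). Acss1, a mitochondrial acetyl-CoA synthetase, read 8.55 and 7.99 with SREBP-1a, 5.31 and 5.28 with SREBP-2 and 5.30 and 5.08 in wild type. It stood 7.85-fold higher in TgSREBP-1a (2.97 ± 0.16, adjusted p = 8.92e-07), and the arrays of TgSREBP-2 lay close to those of wild type. Thrsp, the Spot 14 protein of lipogenic tissues, read 12.12 and 12.0 with SREBP-1a, 9.33 and 9.32 with SREBP-2 and 8.98 and 8.75 in wild type (2.73 ± 0.09, adjusted p = 2.47e-08). For both genes the difference from wild type in TgSREBP-2 was not called (0.11 ± 0.16 and 0.46 ± 0.09).

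The other 6 were called above wild type in TgSREBP-1a, and 5 of them in TgSREBP-2 too. Elovl6, which elongates palmitate, read 10.97 and 10.71 with SREBP-1a, 9.27 and 9.08 with SREBP-2 and 6.98 and 7.06 in wild type (1.66 ± 0.12). Fasn, fatty acid synthase, read 12.29 and 12.29 with SREBP-1a, 11.28 and 11.19 with SREBP-2 and 8.65 and 8.32 in wild type (1.05 ± 0.11, 2.08-fold). Acly, which makes cytosolic acetyl-CoA from citrate, read 11.61 and 11.47 with SREBP-1a and 10.66 and 10.42 with SREBP-2 (1.0 ± 0.11). All TgSREBP-1a arrays exceeded all TgSREBP-2 arrays in these genes. Fads1, the delta-5 desaturase, differed by 1.24 ± 0.09 and Elovl5, an elongase of polyunsaturated fatty acids, by 0.92 ± 0.14. Elovl5 was not called in TgSREBP-2 against wild type (0.39 ± 0.14). Scd2, a stearoyl-CoA desaturase that adult liver makes little of, read 10.97 and 10.73 with SREBP-1a, 9.92 and 9.99 with SREBP-2 and 5.95 and 6.0 in wild type, so both transgenic pools lay far above wild type and TgSREBP-1a by 0.90 ± 0.09 above TgSREBP-2.

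The other 6 members were not called. Scd1, the main desaturase of liver, read 13.81 and 13.67 with SREBP-1a and 13.31 and 13.26 with SREBP-2 (0.46 ± 0.09, adjusted p = 0.0095). It missed the fold threshold near the top of the scale and passed it under quantile normalization (0.61). Mid1ip1, the partner of Thrsp, differed by 0.45 ± 0.08 and was called when all its probe sets were averaged (0.60). The citrate carrier Slc25a1 differed by 0.27 ± 0.13, with a 95% interval from -0.01 to 0.55. The elongases Elovl2 (0.13 ± 0.21), Elovl1 (-0.02 ± 0.10) and Elovl3 (-0.35 ± 0.15) did not pass, and without replicate 2 of TgSREBP-1a Elovl3 was called lower there (-0.63).

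Enzymes that supply NADPH, the reducing power of both pathways, were called higher in 4 of 9 and lower in 1 (median 0.55). Me1, malic enzyme, read 10.61 and 10.31 with SREBP-1a, 8.99 and 8.73 with SREBP-2 and 7.01 and 6.79 in wild type (1.60 ± 0.13). Pgd, of the pentose phosphate pathway, read 10.20 and 10.12 with SREBP-1a and 8.82 and 8.81 with SREBP-2 (1.34 ± 0.08, and 0.78 with probe sets averaged). Neither gene overlapped between the pools. Transketolase, Tkt, differed by 0.69 ± 0.10 and Rpia by 0.61 ± 0.10, but Rpia missed the fold threshold without replicate 1 of TgSREBP-1a (0.54) or replicate 2 of TgSREBP-2 (0.55) and with 32 added (0.48). Taldo1 (0.55 ± 0.10) missed it with all arrays and passed without replicate 2 of TgSREBP-1a (0.61) or replicate 1 of TgSREBP-2 (0.69). H6pd, which makes NADPH inside the endoplasmic reticulum, was lower in TgSREBP-1a (10.38 and 10.36 with SREBP-1a and 11.11 and 11.03 with SREBP-2, -0.70 ± 0.08), by -0.56 and without a call under quantile normalization. Idh1 (0.13 ± 0.17), Pgls (0.11 ± 0.10) and Rpe (-0.10 ± 0.12) were not called.

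Of 14 glycerolipid genes 2 were called higher. Gpam, which adds the first fatty acid to glycerol phosphate, read 11.62 and 11.67 with SREBP-1a, 10.08 and 10.01 with SREBP-2 and 9.24 and 9.10 in wild type (1.60 ± 0.09). Lpin1, a phosphatidate phosphatase, read 9.78 and 9.31 with SREBP-1a and 8.74 and 8.34 with SREBP-2 (1.0 ± 0.16). The pools did not overlap for either. Lpcat3, which remodels phosphatidylcholine, differed by 0.55 ± 0.10 and was called without replicate 2 of TgSREBP-1a (0.71) or replicate 1 of TgSREBP-2 (0.61). Pcyt2, of phosphatidylethanolamine synthesis, stood at -0.39 ± 0.08 and Gpat4 at -0.40 ± 0.08, both under 1.5-fold. The other 9 lay between -0.11 (Dgat1) and 0.29 (Cds2): Agpat3, Pemt, Pcyt1a, Chka, Agpat1, Mogat2 and Lpin2 were among them. Pcyt1a, whose promoter holds a TCACNCCAC match, differed by 0.23 ± 0.13.

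Of 8 genes of the SREBP pathway and sterol uptake 2 were called higher. Lpl, lipoprotein lipase, which adult hepatocytes make little of, read 8.16 and 7.52 with SREBP-1a, 5.92 and 5.72 with SREBP-2 and 5.72 and 5.57 in wild type, so TgSREBP-2 lay near wild type and TgSREBP-1a 4.06-fold above TgSREBP-2 (2.02 ± 0.17). Npc2, which hands on cholesterol in lysosomes, differed by 0.81 ± 0.11. Srebf1, the mouse gene of SREBP-1, read 10.57 and 10.52 with SREBP-1a, 10.01 and 10.04 with SREBP-2 and 8.68 and 8.70 in wild type (0.52 ± 0.07, adjusted p = 0.000795) and missed 1.5-fold, which it passed under quantile normalization (0.61). It was not tested whether the probe set of Srebf1 reads the transgene too. Insig1 (0.08 ± 0.12), Lipa (0.09 ± 0.11), Mbtps1 (-0.05 ± 0.08), Npc1 (-0.11 ± 0.12) and Lrp1 (-0.36 ± 0.08) were not called. Insig1 read 4.30 and 4.67 with SREBP-1a and 4.37 and 4.45 with SREBP-2, and detection calls were not used here, so it is not known whether signals this low are above background.

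Among 18 lipoprotein and sterol efflux genes, 2 were higher in TgSREBP-1a and 3 lower (median -0.22). Pltp, the phospholipid transfer protein, read 10.70 and 10.45 with SREBP-1a and 9.76 and 9.43 with SREBP-2 (0.98 ± 0.13), and Apoa4 differed by 0.80 ± 0.08. Apom, an apolipoprotein of HDL, read 9.32 and 9.34 with SREBP-1a and 10.39 and 10.27 with SREBP-2 (-1.0 ± 0.09), and with all its probe sets averaged it missed 1.5-fold (-0.50). Apoa5 differed by -0.81 ± 0.10. Lcat, which esterifies plasma cholesterol, differed by -0.71 ± 0.18 but lost its call without replicate 2 of TgSREBP-1a (-0.51) or replicate 1 of TgSREBP-2 (-0.46), with adjusted p of 0.175 and 0.223, and with probe sets averaged (-0.33). Apob stood at -0.52 ± 0.13 and Apoe at -0.05 ± 0.08, neither called.

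Bile acid synthesis was lower in TgSREBP-1a in 3 of 15 genes and higher in 0. Cyp7b1, the oxysterol hydroxylase of the alternative pathway, had the largest difference of any lipid gene listed. Its signal was 5.98 and 5.95 with SREBP-1a, 10.04 and 9.78 with SREBP-2 and 10.42 and 10.24 in wild type, so TgSREBP-1a stood 15.4-fold below TgSREBP-2 (-3.95 ± 0.11), and TgSREBP-2 differed from wild type by -0.42 ± 0.11. Its probe set is of the f type, which can detect related transcripts. Cyp8b1, which sets the share of cholic acid, read 10.11 and 10.30 with SREBP-1a and 11.17 and 11.15 with SREBP-2 (-0.95 ± 0.09), and Baat, which joins bile acids to amino acids, differed by -0.75 ± 0.10. Abcc2, an exporter at the canaliculus, stood at -0.58 ± 0.11 and was called without replicate 1 of TgSREBP-1a (-0.73) or replicate 2 of TgSREBP-2 (-0.64). Fgfr4 (-0.54 ± 0.08) was called without replicate 2 of TgSREBP-1a (-0.61), and Scp2 (-0.53 ± 0.15) without replicate 1 of it (-0.76). Cyp7a1, the rate-limiting enzyme of the classical pathway, read 5.82 and 5.80 with SREBP-1a and 6.29 and 6.30 with SREBP-2 (-0.49 ± 0.16, adjusted p = 0.0889).

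Of 12 genes of lipid droplets and lipolysis 3 were higher and 2 lower in TgSREBP-1a. Abhd5, the activator of the triglyceride lipase Pnpla2, read 8.57 and 8.39 with SREBP-1a, 6.45 and 6.29 with SREBP-2 and 6.32 and 6.33 in wild type (2.11 ± 0.09). Cidea, a lipid droplet protein best known from brown fat, read 7.45 and 7.67 with SREBP-1a and 5.36 and 5.70 with SREBP-2 (2.03 ± 0.12). Both lay at wild type levels in TgSREBP-2 (differences of 0.05 and 0.01). Cidec differed by 0.73 ± 0.10, from low signals (4.35 and 4.50 in TgSREBP-2), and was not called with 32 added before taking logs (0.34). Ces3a, a carboxylesterase, read 8.25 and 7.88 with SREBP-1a and 10.99 and 10.85 with SREBP-2 (-2.85 ± 0.12). G0s2, an inhibitor of Pnpla2, read 6.52 and 6.83 with SREBP-1a, 7.47 and 7.53 with SREBP-2 and 9.67 and 9.66 in wild type, so both pools lay far below wild type, with TgSREBP-1a the lower (-0.83 ± 0.12). Plin2 stood at 0.30 ± 0.07.

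Of 29 PPAR alpha targets and fatty acid oxidation genes 7 were higher and 1 lower (median 0.13). Cyp4a14, a fatty acid omega-hydroxylase, read 11.63 and 11.13 with SREBP-1a, 9.23 and 8.84 with SREBP-2 and 9.35 and 9.04 in wild type (2.34 ± 0.19). Its relative Cyp4a10, on an f type probe set, read 10.60 and 10.26 with SREBP-1a, 8.41 and 8.07 with SREBP-2 and 9.11 and 8.92 in wild type (2.19 ± 0.16). Acot1, an acyl-CoA thioesterase, read 9.56 and 9.49 with SREBP-1a, 7.60 and 7.66 with SREBP-2 and 8.33 and 8.42 in wild type (1.90 ± 0.09). In the last 2 genes TgSREBP-1a lay above wild type and TgSREBP-2 below it. Ehhadh (1.34 ± 0.17), Aldh3a2 (1.33 ± 0.16), Vnn1 (1.30 ± 0.18) and Acaa1b (0.81 ± 0.09) were the others called higher. Ppara, the receptor itself, was lower in TgSREBP-1a, at 8.43 and 8.21 with SREBP-1a and 9.58 and 9.32 with SREBP-2 (-1.12 ± 0.13). Of the mitochondrial oxidation genes named here Cpt1a stood at -0.54 ± 0.11, Acadm at 0.13 ± 0.16 and Hadhb at 0.27 ± 0.11, none called.

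Of 17 glycolysis and gluconeogenesis genes 1 was higher and 4 lower. Pck1, the gluconeogenic enzyme whose promoter is known to drive both transgenes, read 8.80 and 8.48 with SREBP-1a, 10.20 and 10.18 with SREBP-2 and 10.35 and 10.24 in wild type (-1.55 ± 0.12). G6pc, which releases glucose, read 9.73 and 9.65 with SREBP-1a and 10.94 and 10.82 with SREBP-2 (-1.19 ± 0.08). The pools did not overlap, and TgSREBP-2 differed from wild type by -0.11 ± 0.12 and -0.09 ± 0.08. Ldha differed by -0.90 ± 0.11 and Pcx, pyruvate carboxylase, by -0.83 ± 0.07, the latter by -0.53 and uncalled with all probe sets averaged. Slc2a2, the glucose transporter GLUT2, read 7.79 and 7.37 with SREBP-1a, 6.71 and 6.38 with SREBP-2 and 7.72 and 7.46 in wild type (1.03 ± 0.17), a difference from a lower TgSREBP-2 pool. Pklr stood at 0.53 ± 0.10, under 1.5-fold.

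Of 20 amino acid genes 1 was higher and 3 lower. Otc, of the urea cycle, read 8.64 and 8.32 with SREBP-1a and 9.89 and 9.57 with SREBP-2 (-1.25 ± 0.14), histidase, Hal, differed by -1.12 ± 0.08 and Tdo2, of tryptophan breakdown, by -0.68 ± 0.09. Tdo2 was not called under quantile normalization (-0.48). Tat, tyrosine aminotransferase, was higher (0.80 ± 0.11). Of 10 genes known to be highest in periportal hepatocytes 4 were lower and 0 higher: Hal and Pck1, counted above, and Cyp2f2 (-1.69 ± 0.08) and Pigr, the transporter of polymeric immunoglobulins (9.17 and 8.89 with SREBP-1a and 11.78 and 11.54 with SREBP-2, -2.63 ± 0.11). Of 12 pericentral genes Cyp1a2 was lower (-0.99 ± 0.08) and 0 higher.

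All mice were male. Of 7 genes known to be higher in male liver 4 were lower and 0 higher (median -0.94), and of 8 known to be higher in female liver 4 were higher and 0 lower (median 0.60). Against wild type, 6 of the 7 male-biased genes were called lower in TgSREBP-1a (2.59% of all genes) and 4 in TgSREBP-2 (0.388%). Of the 8 female-biased genes, 4 were called higher in TgSREBP-1a and 0 in TgSREBP-2. Mup3, a major urinary protein of the mouse, read 11.19 and 11.06 with SREBP-1a, 13.44 and 13.36 with SREBP-2 and 13.72 and 13.68 in wild type (-2.28 ± 0.08), and Mup5 read 11.25 and 11.17 with SREBP-1a and 12.55 and 12.61 with SREBP-2 (-1.37 ± 0.08). Mup genes are near-identical copies, so which member was measured is uncertain. Keg1 differed by -1.0 ± 0.12. Hsd3b5, a male-specific steroid dehydrogenase, read 5.21 and 5.30 with SREBP-1a, 6.34 and 6.06 with SREBP-2 and 8.18 and 7.70 in wild type (-0.94 ± 0.15, and -0.59 with 32 added), so it was below wild type in both pools. Gstp1 (-0.36 ± 0.08) and Serpina12 (-0.36 ± 0.08) were under 1.5-fold.

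Of the female-biased genes Cyp2c39 read 10.13 and 9.96 with SREBP-1a, 7.28 and 7.47 with SREBP-2 and 8.05 and 8.01 in wild type (2.67 ± 0.09). Cyp17a1, the steroid 17-hydroxylase, read 10.07 and 9.96 with SREBP-1a and 7.93 and 7.81 with SREBP-2 (2.14 ± 0.09, and 1.38 with probe sets averaged). Cyp2b9 differed by 1.45 ± 0.10 and Sult2a2 by 0.91 ± 0.10, the latter at low signals (3.71 and 3.90 in TgSREBP-2) and uncalled with 32 added (0.34). The 4 arrays of the transgenic pools did not overlap for these genes. The other 4, Sult3a1, Hao2, Cyp2b13 and Cux2, lay between -0.05 and 0.30.

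**Figure D3:**
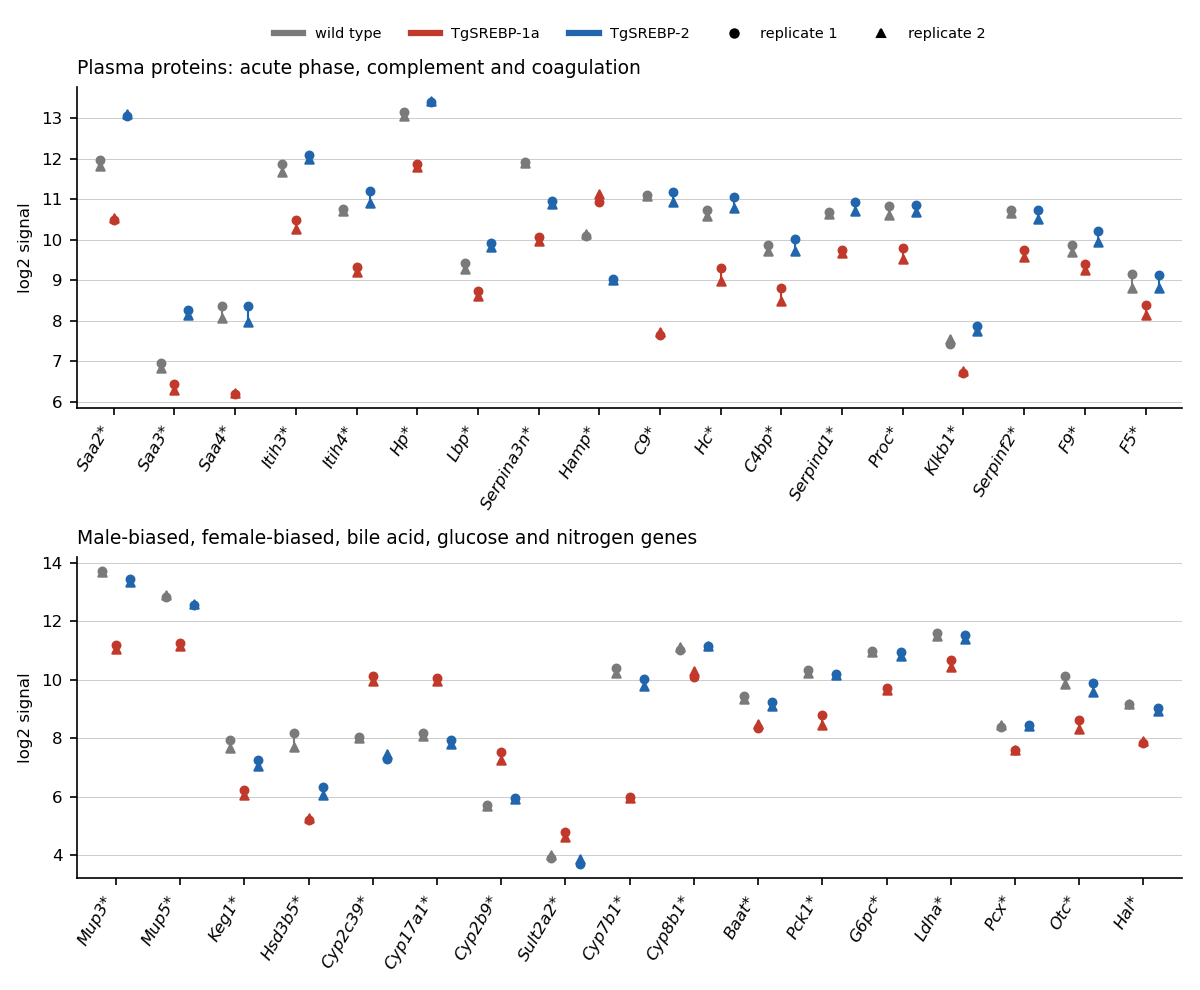
Log2 signal on each array of the high-protein set for 18 plasma protein genes (top) and for sex-biased, bile acid, glucose and nitrogen genes (bottom). Circles are replicate 1 and triangles replicate 2 of wild type (grey), TgSREBP-1a (red) and TgSREBP-2 (blue), and an asterisk marks genes called between the transgenic pools. Red lies below blue except for Hamp in the top panel and for the 4 female-biased genes Cyp2c39, Cyp17a1, Cyp2b9 and Sult2a2 in the bottom panel.

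Of 24 genes of xenobiotic metabolism 2 were higher and 6 lower. Nr1i3, the receptor CAR, read 8.19 and 8.37 with SREBP-1a and 9.75 and 9.77 with SREBP-2 (-1.48 ± 0.08). Cyp3a13 differed by -1.37 ± 0.19, Cyp3a25 by -0.76 ± 0.21 and Ugt2b5 by -0.62 ± 0.10, with Cyp2f2 and Cyp1a2 given above. Cyp3a11, the main drug-metabolising cytochrome of this family, read 11.98 and 11.72 with SREBP-1a and 10.88 and 10.44 with SREBP-2 (1.19 ± 0.14). Sult1a1 was higher (0.94 ± 0.14) but not with all probe sets averaged (0.57).

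Of 24 glutathione and NRF2 target genes 5 were higher and 3 lower. The 5 were glutathione transferases: Gstm3 (2.06 ± 0.10, f type), Gstt2 (1.31 ± 0.10), Gstm1 (0.94 ± 0.07, 0.58 and uncalled with probe sets averaged), Gstt1 (0.89 ± 0.13) and Gstm6 (0.85 ± 0.07). Gclm, the modifier subunit that makes glutathione synthesis efficient, read 8.0 and 7.80 with SREBP-1a and 9.17 and 8.94 with SREBP-2 (-1.16 ± 0.11), and Gsta3 differed by -0.62 ± 0.17. Srxn1, sulfiredoxin, gave opposite answers on its 2 probe sets. The brighter set, of the i type with fewer probes, read 7.57 and 7.61 in TgSREBP-1a and 8.25 and 8.31 in TgSREBP-2 (-0.69 ± 0.09). The plain set read 8.50 and 8.07 against 7.45 and 7.35 (0.89 ± 0.14). Both were called, so the direction of Srxn1 is not settled here.

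Of 27 acute phase genes 8 were lower and 1 higher (median -0.48), and of 26 complement and coagulation genes 13 were lower and 0 higher (median -0.61). Pools did not overlap in the lower direction for 20 of the 27 and 23 of the 26, against 22.4% of all genes. Saa2, serum amyloid A, read 10.50 and 10.54 with SREBP-1a, 13.05 and 13.10 with SREBP-2 and 11.96 and 11.81 in wild type (-2.56 ± 0.12), with wild type between the transgenic pools. Its probe set is of the f type, and serum amyloid genes are close copies. Saa3 read 6.43 and 6.28 with SREBP-1a and 8.26 and 8.14 with SREBP-2 (-1.84 ± 0.09) and Saa4 6.20 and 6.21 with SREBP-1a and 8.38 and 7.97 with SREBP-2 (-1.97 ± 0.14). Hp, haptoglobin, read 11.87 and 11.81 with SREBP-1a, 13.41 and 13.42 with SREBP-2 and 13.15 and 13.07 in wild type (-1.58 ± 0.07). Itih4 (-1.79 ± 0.11), Itih3 (-1.68 ± 0.10), Lbp (-1.19 ± 0.09) and Serpina3n (-0.91 ± 0.08) were the other members called lower. Serpina3n was below wild type in both pools (-1.89 with SREBP-1a and -0.98 with SREBP-2). Hamp, hepcidin, which limits iron export, ran the other way. It read 10.93 and 11.12 with SREBP-1a, 9.04 and 9.0 with SREBP-2 and 10.11 and 10.13 in wild type (2.01 ± 0.08, 4.02-fold). Orm2, an orosomucoid, was above wild type by like amounts in both pools (2.08 with SREBP-1a and 1.93 with SREBP-2) and differed between them by 0.15 ± 0.08.

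C9, the pore-forming complement component, read 7.66 and 7.72 with SREBP-1a, 11.18 and 10.94 with SREBP-2 and 11.11 and 11.09 in wild type. TgSREBP-1a stood 10.3-fold below TgSREBP-2 (-3.37 ± 0.09), and the TgSREBP-2 arrays overlapped those of wild type. Hc, complement component C5, read 9.31 and 8.98 with SREBP-1a and 11.06 and 10.79 with SREBP-2 (-1.78 ± 0.12). C4bp differed by -1.23 ± 0.14, Serpind1 by -1.11 ± 0.10, Proc by -1.10 ± 0.11, Klkb1 by -1.08 ± 0.09 and Serpinf2 by -0.95 ± 0.10. Proc was not called with its probe sets averaged (-0.50). The other 6 called, F9, F13b, F5, Mbl1, Masp1 and F10, lay between -0.76 and -0.64. Against wild type, 11 members of the complement and coagulation list were lower in TgSREBP-1a (2.59% of all genes) and 0 in TgSREBP-2 (0.388%).

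Interferon-stimulated genes were lower in TgSREBP-1a in 9 of 30 and higher in 1 (median -0.25). Iigp1, an immunity-related GTPase, read 8.83 and 8.50 with SREBP-1a, 10.35 and 9.92 with SREBP-2 and 10.37 and 10.09 in wild type (-1.47 ± 0.16), and there TgSREBP-2 overlapped wild type. Igtp, of the same family, read 6.22 and 6.18 with SREBP-1a, 7.88 and 7.45 with SREBP-2 and 6.79 and 6.85 in wild type (-1.46 ± 0.12), with the pools on either side of wild type. Psmb8, a subunit of the immunoproteasome, read 7.24 and 6.95 with SREBP-1a, 8.56 and 8.24 with SREBP-2 and 7.42 and 7.24 in wild type (-1.30 ± 0.13). Ifi27 (-1.26 ± 0.09), Ifi47 (-1.18 ± 0.10, and -0.77 with 32 added), Isg15 (-0.70 ± 0.10), Irf7 (-0.66 ± 0.08), Tap1 (-0.63 ± 0.12) and Psmb9 (-0.60 ± 0.11) were also called lower. For Ifi27, Psmb8, Isg15, Irf7, Tap1 and Psmb9 the difference from wild type was not called in TgSREBP-1a. Against wild type, 10 of the 30 were called higher in TgSREBP-2 (2.18% of all genes) and 2 in TgSREBP-1a (4.78%). Ifit1 stood at -0.55 ± 0.12 and Mx1 at 0.00 ± 0.10. The chemokine Cxcl9 was higher (0.82 ± 0.18) but not called with 32 added (0.45), nor without replicate 1 of TgSREBP-1a or replicate 2 of TgSREBP-2, where its adjusted p was 0.0705 and 0.107.

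Of 17 histocompatibility genes 2 were higher and 0 lower. H2-Q1 read 9.09 and 8.67 with SREBP-1a, 5.55 and 5.60 with SREBP-2 and 5.64 and 5.61 in wild type (3.31 ± 0.12, 9.89-fold), the largest increase of the 8251 genes. Its probe set is of the f type, and class I genes are near-identical, so the transcript measured is uncertain. Cd74, the class II invariant chain, differed by 0.59 ± 0.12, and missed 1.5-fold with 32 added (0.57) and without replicate 1 of TgSREBP-1a (0.53) or replicate 2 of TgSREBP-2 (0.48). The classical class I genes H2-K1 (0.17 ± 0.11) and H2-D1 (0.14 ± 0.09) were not called, and B2m, their light chain, stood at -0.54 ± 0.11 and was called lower without replicate 1 of TgSREBP-1a (-0.71).

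Genes of the unfolded protein response were lower in 3 of 24 and higher in 0 (median -0.24). Dnajb11 (-0.87 ± 0.16), Manf (-0.76 ± 0.14) and Pdia6 (-0.67 ± 0.11), which help to fold proteins in the endoplasmic reticulum, were called. Pdia6 missed 1.5-fold without replicate 2 of TgSREBP-1a (-0.54) or replicate 1 of TgSREBP-2 (-0.57), and so did Manf without the former (-0.58), while without the latter its adjusted p was 0.0512. With the replicate block 5 were called, adding Xbp1 (-0.69, adjusted p = 0.000285) and Hspa5 (-0.62, adjusted p = 0.00068). Pancreas acinar cells are known to be rich in these transcripts, and the pancreas marker sum was lower in the same direction. Its part was not tested.

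Of 30 cell cycle genes Ccnd1, cyclin D1, was the member called. It read 8.64 and 8.32 with SREBP-1a, 6.24 and 6.36 with SREBP-2 and 6.58 and 6.81 in wild type (2.18 ± 0.12, and 1.16 with all its probe sets averaged). With probe sets averaged the cell cycle inhibitor Cdkn1a was called higher too (0.80, against 0.29 ± 0.08 on its brightest one). Of 20 immediate early genes 5 were higher and 1 lower. Dusp1 (0.97 ± 0.15), Klf6 (0.81 ± 0.13), Jund (0.79 ± 0.08), Myc (0.71 ± 0.12) and Btg2 (0.60 ± 0.08) were higher, and the chemokine Cxcl1 lower (-1.07 ± 0.19). Myc missed the fold threshold without replicate 1 of TgSREBP-1a (0.58) and with 32 added (0.26), and Btg2 without replicate 2 of TgSREBP-2 (0.55) and with 32 added (0.56). Of 15 clock genes Nr1d2 was lower (-0.63 ± 0.14), with the call lost with 32 added (-0.43) and without replicate 2 of TgSREBP-1a or replicate 1 of TgSREBP-2, where its adjusted p was 0.0951 and 0.115. Limma called 0 of 32 respiratory chain genes, of which 4 had an unadjusted p under 0.05.

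Of 12 exocrine pancreas markers 8 were lower in TgSREBP-1a and 0 higher (median -3.07). Prss2, a trypsinogen, read 5.64 and 5.66 with SREBP-1a, 11.86 and 11.81 with SREBP-2 and 11.22 and 11.19 in wild type (-6.19 ± 0.07, 72.8-fold), the largest difference of the 8251 genes. Its probe set is of the f type. Ctrb1 (-4.63 ± 0.08), Cela1 (-3.46 ± 0.07), Cel (-3.42 ± 0.11), Clps (-3.32 ± 0.10), Pnliprp1 (-3.08 ± 0.18), Reg1 (-3.06 ± 0.11, and -1.63 with probe sets averaged) and Cela2a (-3.02 ± 0.10) followed. Detection calls were not used, so it is not known whether the signals in TgSREBP-1a, such as that of Prss2, are above background. In TgSREBP-2 the means of the 8 lay above wild type, by 0.15 (Cela2a) to 1.45 (Reg1). Reg2, Reg3b, Spink1 and Pnliprp2 were not called. Among the 12 largest decreases, 2210010C04Rik (-3.66 ± 0.08) and Rnase1 (-3.59 ± 0.13) had the same order of pools. The Scap-/- pool also read low against its own wild type for Prss2 (5.94 and 5.93 against 10.13 and 10.15).

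Of 9 skeletal muscle markers 4 were lower, with summed linear signals of 797.2 and 851.2 in TgSREBP-1a and 1377 and 1305 in TgSREBP-2. Acta1 read 5.59 and 5.82 with SREBP-1a, 8.63 and 8.43 with SREBP-2 and 9.04 and 8.60 in wild type (-2.82 ± 0.14), Tnnt3 differed by -0.78 ± 0.15, Atp2a1 by -0.69 ± 0.10 and Mb by -0.64 ± 0.09. Tnnt3 lost its call without replicate 2 of TgSREBP-2 (adjusted p = 0.051) and with 32 added (-0.46), and Mb with 32 added (-0.42) and with probe sets averaged (-0.33, adjusted p = 0.14). Car3, of the adipocyte list but abundant in male liver and muscle, read 7.76 and 7.50 with SREBP-1a and 10.07 and 9.80 with SREBP-2 (-2.30 ± 0.12). Alas2 of the red cell list was lower (-0.79 ± 0.09).

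Few markers of the liver's stellate cells, endothelium, macrophages and lymphocytes were called, and those called were higher in TgSREBP-1a (2.24% of all genes). Medians of these lists were 0.16, 0.09, 0.32 and 0.02. Differences were negative for 5 of 14, 1 of 9, 1 of 11 and 5 of 13 members. The stellate and fibroblast sum was 3783 and 3639 in TgSREBP-1a against 2990 and 2967 in TgSREBP-2, and 3 of 14 markers were called higher. Col4a1 (0.84 ± 0.12) and Sparc (0.81 ± 0.15) were 2 of them, and Sparc was not called with 32 added (0.52) or with the 4 transgenic arrays alone (adjusted p = 0.0582). The other, Col3a1 (0.60 ± 0.14), lost its call when any of 3 arrays was left out, with adjusted p from 0.0771 to 0.0885. Of 9 endothelial markers Lyve1 was higher (0.99 ± 0.17, sums of 1769 and 1730 against 1475 and 1425), but at 0.48 not called with 32 added. Of 11 macrophage markers Marco was called (0.77 ± 0.18) but not with 32 added (0.55), nor without either replicate of TgSREBP-1a or replicate 1 of TgSREBP-2 (adjusted p from 0.0613 to 0.148). Macrophage sums were 5451 and 5055 against 4577 and 4254. Of 13 lymphocyte markers Ighm was higher (1.52 ± 0.08), and by 0.26 and uncalled with its probe sets averaged. Limma called 0 of 10 neutrophil, 4 cholangiocyte and 5 gut markers, of which 2, 0 and 1 had an unadjusted p under 0.05. Of 8 hepatocyte markers Tat was higher, and Ttr, transthyretin, lower (-1.26 ± 0.10). Alb, albumin, stood at 0.25 ± 0.08.

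**Figure D4:**
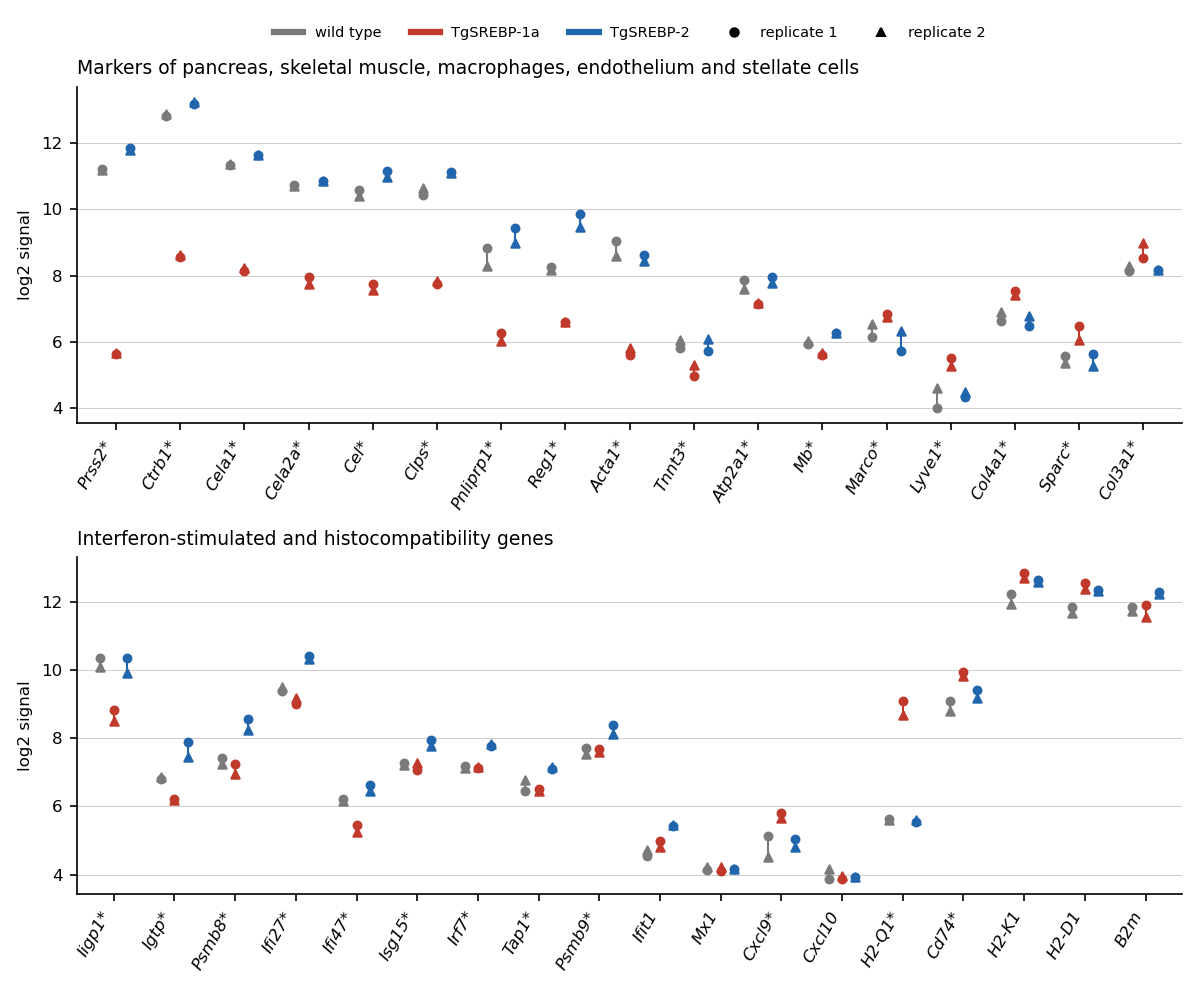
Log2 signal on each array of the high-protein set for markers of other cell types (top) and for interferon-stimulated and histocompatibility genes (bottom). Circles are replicate 1 and triangles replicate 2 of wild type (grey), TgSREBP-1a (red) and TgSREBP-2 (blue), and an asterisk marks genes called between the transgenic pools. The 8 pancreas markers at the left are low in TgSREBP-1a alone among these 3 pools.

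**Figure D5:**
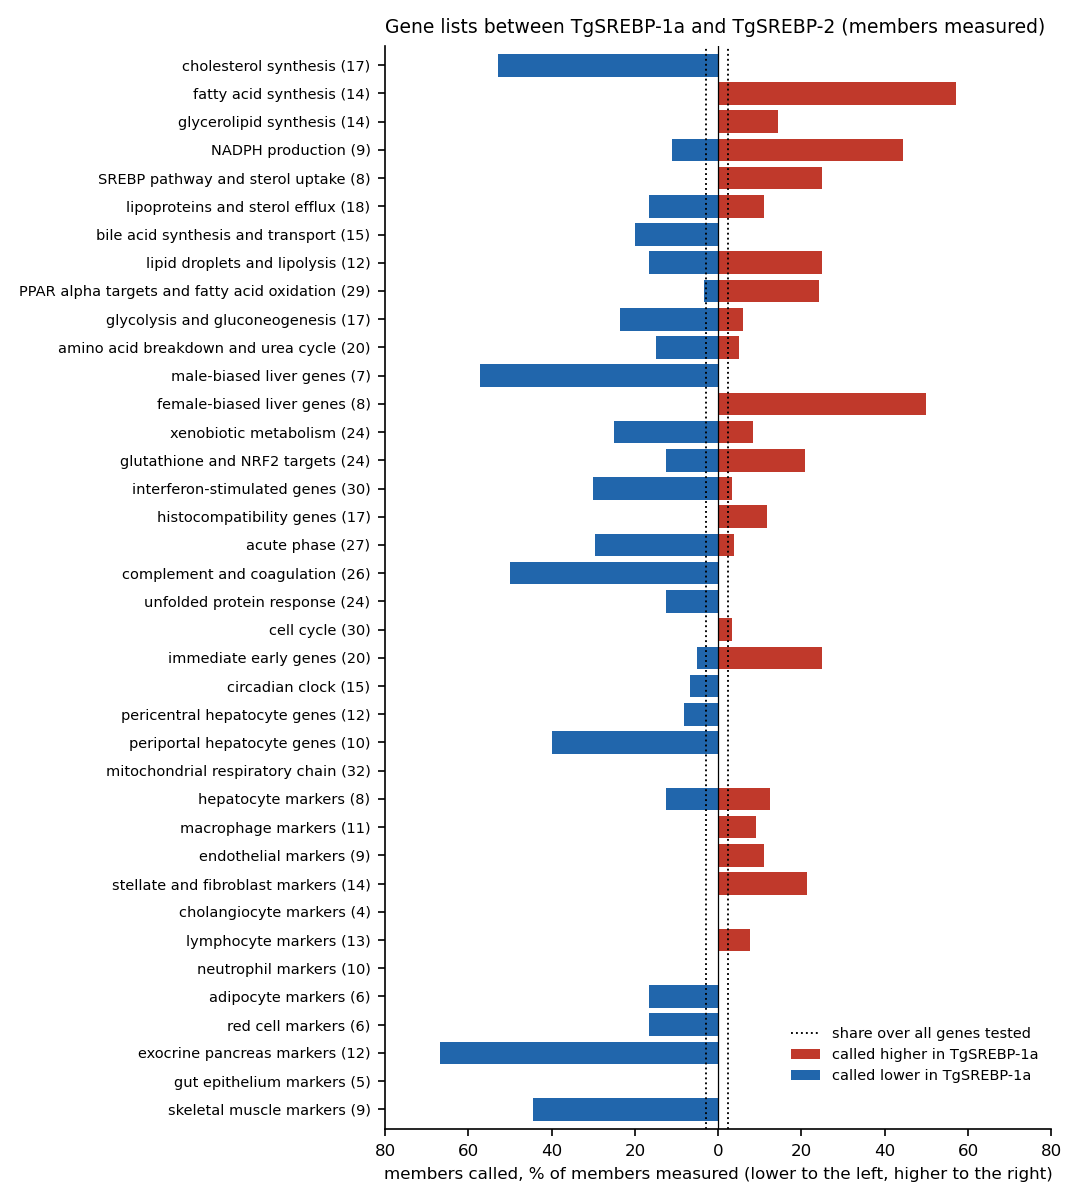
Members called between the transgenic pools as a percentage of the members measured (numbers in brackets), for 26 gene lists and 12 marker lists. Bars to the right are genes higher in TgSREBP-1a and bars to the left genes lower there, and dotted lines give the shares over all genes tested, 2.24% and 2.95%.

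The Scap-/- comparison shares no array with the transgenic one and was read for the genes called above. Over all genes, 0.739% were higher and 0.921% lower in the Scap-/- pool than in its wild type. Of the 243 genes lower in TgSREBP-1a than in TgSREBP-2, 33 (13.6%) were lower in Scap-/- than in its wild type. These are 43.4% of the 76 lower there, and 7 (2.88%) of the 243 were higher. These 33 held 7 cholesterol synthesis genes, the 8 pancreas markers and 4 interferon-stimulated genes. Outside the marker list they held Rnase1 (-2.31 ± 0.13 in Scap-/-), Klk1 (-1.24 ± 0.14) and Sycn (-0.98 ± 0.09), also abundant in exocrine pancreas. 2210010C04Rik (-2.46 ± 0.08) was among them too. The part of pancreas RNA in this overlap was not tested. Against wild type of its own set, TgSREBP-1a was called higher for these 7 cholesterol genes, by 0.60 (Hsd17b7) to 2.66 (Idi1). For the 8 pancreas markers it was called lower. Idi1 differed by -2.57 ± 0.09 and Msmo1 by -2.35 ± 0.19 in Scap-/-. Mvk, a cholesterol gene lower in TgSREBP-1a, was not called there (-0.40 ± 0.10).

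Of the 185 genes higher in TgSREBP-1a, 14 (7.57%) were lower in Scap-/- and 14 (7.57%) higher, 18.4% and 23% of the genes called in those directions. The 14 lower ones held 6 fatty acid synthesis genes, such as Thrsp (-2.18 ± 0.09) and Fads1 (-1.71 ± 0.09), with Me1 (-1.30 ± 0.13), Gpam (-0.67 ± 0.09), Acsl5, an acyl-CoA synthetase (-0.81 ± 0.14), and Dbi, which binds acyl-CoA (-1.09 ± 0.08). Acss1 and Scd2 were not called in Scap-/- (0.17 ± 0.16 and -0.20 ± 0.09). The 14 higher ones included Ly6d (1.21 ± 0.10), Sprr1a (1.32 ± 0.09), Ccnd1 (1.09 ± 0.12), Cyp4a14 (0.89 ± 0.19) and Anxa2 (0.91 ± 0.08), which were above wild type both where nuclear SREBP-1a was made and where SCAP was lost.

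Of the 12 largest increases, 4 lay in no list. Ly6d, a surface protein of the Ly6 family, read 11.01 and 10.99 with SREBP-1a, 7.82 and 7.75 with SREBP-2 and 7.77 and 7.46 in wild type (3.22 ± 0.10), and differed by 1.51 with its 2 probe sets averaged. Sprr1a, known from the cornified envelope of skin, read 9.21 and 9.16 with SREBP-1a, 6.51 and 6.67 with SREBP-2 and 6.99 and 6.93 in wild type (2.59 ± 0.09). Rdh16, a retinol dehydrogenase, read 10.25 and 9.87 with SREBP-1a, 7.54 and 7.42 with SREBP-2 and 7.06 and 7.0 in wild type (2.57 ± 0.12). Pla2g7, which cleaves platelet-activating factor, read 7.04 and 7.03 with SREBP-1a, 4.84 and 4.69 with SREBP-2 and 4.65 and 4.50 in wild type (2.27 ± 0.09, and 1.46 with 32 added). In all 4 the TgSREBP-1a arrays stood apart, and TgSREBP-2 differed from wild type by no more than 0.45. Of the 12 largest decreases Slc22a30, an organic anion transporter, lay outside the lists too. It read 5.53 and 5.08 with SREBP-1a, 8.90 and 8.53 with SREBP-2 and 8.65 and 8.21 in wild type (-3.41 ± 0.21), on a probe set of the i type, which holds fewer probes.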

How the data were processed

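RNA of 5 pools of 5 mouse livers was hybridised to 2 arrays a pool. The values used are the log2 signals the authors deposited for 12488 probe sets. RMA is named in the submitters' processing notes, without a version, and the design text gives Microarray Suite. RMA scales arrays to each other, which removes a shift shared by most genes. Control probe sets (66) and those with several gene symbols (396) or none (1193) stayed out of the tests, and of the others the probe set with the highest mean over 10 arrays stood for its gene, which left 8251 genes. Symbols were updated through RefSeq for 10817 of 10833 probe sets. Signals ran from 2.68 to 14.03 and array medians from 6.37 to 6.40, and the number of arrays limits the precision.

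One coefficient per group was fitted over all 10 arrays with limma 3.58.1 in R 4.3.3 (5 residual degrees of freedom, empirical Bayes, Benjamini-Hochberg over all genes). On simulated data with 200 changed genes, 47.8%, 89.6% and 100% of genes changed 1.5-fold, 2-fold and 4-fold were called, with 2 unchanged ones. Genes changed 1.5-fold lay at the fold minimum itself. The simulated noise was independent between arrays and alike in all groups, with no effect of replicate number and no spread between mice. The 2 are therefore no estimate of false calls in the real data. Replicate numbers paired the high-protein arrays: deviations of same-numbered arrays correlated at 0.5991 between the transgenic pools and at 0.4565 and 0.6084 with wild type. What the number marks is not given in the sources used here. Alternatives varied this block, the arrays fitted, scaling, low values, probe sets per gene, variances and the fold minimum, and left out each transgenic array.

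Members and lists were chosen with earlier results of these data known. Named by rule were the 12 largest differences in each direction, all members of the lipid synthesis, NADPH and SREBP pathway lists, up to 6 largest differences of each other list (all called where 5 or fewer), and genes whose probe sets opposed each other. Other genes, the printed windows of 7 promoters and the window of Hsd17b7 were chosen after their values were seen.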

Additional observations from a re-analysis of the deposited data

Results flagged for a closer look

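Of the 428 genes called between the transgenic pools, 14 had the pools on opposite sides of wild type, each side past the threshold. Signals and differences are on the log2 scale, with the difference between the pools given as TgSREBP-1a minus TgSREBP-2. The wild type arrays are shared by both comparisons.

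In 5 genes TgSREBP-1a was above wild type and TgSREBP-2 below. Cyp2c39, a cytochrome, differed by 2.67 between the pools and from wild type by 2.02 ± 0.09 and -0.65 ± 0.09. The fatty acid hydroxylase Cyp4a10 differed by 2.19 (against wild type 1.42 ± 0.16 and -0.77 ± 0.16), the thioesterase Acot1 by 1.90 (1.15 ± 0.09 and -0.75 ± 0.09) and hepcidin, Hamp, by 2.01 (0.91 ± 0.08 and -1.10 ± 0.08). Retreg1, a receptor for autophagy of the endoplasmic reticulum, read 9.81 and 9.46 with SREBP-1a, 8.14 and 7.81 with SREBP-2 and 9.14 and 8.94 in wild type, a difference of 1.66, with its rise over wild type close to the 1.5-fold threshold (0.59 ± 0.15 and -1.07 ± 0.15).

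In the other 9 the order was reversed. Noct, which shows strong daily rhythms in liver, read 5.98 and 6.05 with SREBP-1a, 8.47 and 8.34 with SREBP-2 and 6.90 and 6.79 in wild type, a difference of -2.39 (against wild type -0.83 ± 0.10 and 1.56 ± 0.10). Atp11a, a phospholipid flippase, read 4.81 and 4.92 with SREBP-1a, 6.75 and 6.34 with SREBP-2 and 5.48 and 5.62 in wild type, a difference of -1.67. Igtp differed by -1.46 and Saa2 by -2.56 (-1.37 ± 0.12 and 1.19 ± 0.12 against wild type). Prss2 (-6.19), Rnase1 (-3.59), Reg1 (-3.06), Sycn (-2.58) and Klk1 (-1.84) are abundant in exocrine pancreas, whose markers differed between the pools as given above. Their differences from wild type in TgSREBP-2 ran from 0.62 to 1.45. Klk1, Prss2, Saa2 and Cyp4a10 have probe sets of the f type, which can detect related transcripts.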

How the results depend on the processing

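Each pool of RNA gave 2 arrays, so the errors cover hybridisation and not mice, and detection calls were not used, so low signals may lie under background. Without a fold minimum 911 genes were called, 429 higher in TgSREBP-1a and 482 lower. At 2-fold there were 185, 77 and 108, with 4 cholesterol synthesis genes lower and 9 genes higher in TgSREBP-1a and lower in Scap-/-. Leaving out 1 of the 4 transgenic arrays at a time gave 411 to 479 called, 161 to 254 higher, 194 to 315 lower, 9 to 11 cholesterol synthesis genes lower, 8 fatty acid genes higher each time, 31 to 36 lower in both comparisons and 15 to 19 higher in TgSREBP-1a but lower in Scap-/-. The share of called genes that were higher was 43.2%, but 55.2% without TgSREBP-1a replicate 2, 52.8% without TgSREBP-2 replicate 1, 34.2% without TgSREBP-1a replicate 1 and 35.1% without TgSREBP-2 replicate 2. Of the 428 genes, 368 to 391 were kept with an array left out, 375 with the 4 transgenic arrays alone, 399 with 6 arrays, 412 after quantile normalization, 421 after median centring, 343 with 32 added before logs, 384 with probe sets averaged, 425 with array weights and 428 with trend and robust settings. Leaving out the dimmest genes (a share of 0.25) kept all 396 of them it tested. With the replicate block all 428 were kept among 442 called (191 higher, 251 lower). Of the named genes it added Hmgcs1, Xbp1 and Hspa5 and changed no other call. The block on the 6 high-protein arrays, added after seeing the data, called 442. Within replicate number 1 and number 2 alone all 428 had the same sign, which the lack of overlap already implies. Of them 367 were at least 1.5-fold apart in both. No called gene turned to a call in the opposite direction under any of these settings, and of 133 named and called genes 107 kept their call under all of them but the fold minimum. Of 101 called genes with several probe sets 88 had 1 sign in all of them.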

Other observations

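Several called genes outside the lists were read after their values were seen. Among genes of lipid binding and transport, Pctp, the phosphatidylcholine transfer protein, read 7.80 and 7.82 with SREBP-1a, 5.69 and 5.76 with SREBP-2 and 5.86 and 5.75 in wild type, a difference between the transgenic pools of 2.08 ± 0.11 on the log2 scale. Fabp5, a fatty acid binding protein that adult liver makes little of, read 9.64 and 9.86 with SREBP-1a, 7.90 and 7.96 with SREBP-2 and 8.15 and 8.18 in wild type (1.82 ± 0.11). Acsl5, which activates fatty acids, differed by 1.22 ± 0.14, and Dbi, the acyl-CoA binding protein, by 0.96 ± 0.08. Citrate synthase, Cs, differed by 1.06 ± 0.11 and the pyruvate dehydrogenase kinase Pdk1 by 1.61 ± 0.17. All 6 were higher in TgSREBP-1a. Erg28, a scaffold of the sterol demethylation enzymes, read 8.11 and 8.10 with SREBP-1a, 9.53 and 9.38 with SREBP-2 and 7.51 and 7.75 in wild type and was lower in TgSREBP-1a (-1.35 ± 0.10), as was Lbr, the lamin B receptor with sterol reductase activity (-0.84 ± 0.12).

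Receptors and hormone genes of hepatocytes were also among the called genes. Lifr, a receptor of the interleukin-6 family, read 7.78 and 7.42 with SREBP-1a, 10.08 and 9.88 with SREBP-2 and 10.28 and 10.05 in wild type (-2.38 ± 0.13). Egfr, the epidermal growth factor receptor, read 8.26 and 8.06 with SREBP-1a, 9.98 and 9.78 with SREBP-2 and 10.17 and 10.05 in wild type (-1.72 ± 0.10). Ghr, the growth hormone receptor, differed by -0.98 ± 0.12, the glucagon receptor Gcgr by -0.65 ± 0.08 and the transcription factor Cebpa by -0.68 ± 0.08. Igfals, which stabilises IGF in plasma, differed by -1.17 ± 0.10 and angiotensinogen, Agt, by -0.95 ± 0.08. Dio1, which activates thyroid hormone, differed by -1.81 ± 0.15 and Hsd11b1, which activates glucocorticoids, by -1.56 ± 0.08. These were lower in TgSREBP-1a. Ddit4, which is induced by stress, differed by 2.04 ± 0.12, Bmp6, an activator of hepcidin, by 1.34 ± 0.09, and Nfe2l2, the gene of NRF2, by 1.13 ± 0.11, all higher in TgSREBP-1a.

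Probe sets that name no single gene gave further calls in a fit of their own, with p-values adjusted over them alone. Of those without a symbol 14 were higher in TgSREBP-1a and 20 lower, and of those with several symbols 11 were higher and 14 lower. The largest of these differences, on a probe set shared by Amy2a and Amy2b genes, was -7.82 ± 0.15 and exceeded that of any named gene. Next came probe sets shared by Try4 and Try5 (-6.03 ± 0.14) and by Amy2a genes (-6.02 ± 0.16). Amy2a5, Try4 and Try5 were listed as exocrine pancreas markers.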
